A study of Mus musculus with 8 samples.

Results

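Replication licensing genes encode the proteins that load the replicative helicase onto DNA before S phase, and 10 of them were followed here in mouse blood stem and progenitor cells with and without added KLF7. A gene belonged to the set when its symbol was one of Mcm2, Mcm3, Mcm4, Mcm5, Mcm6, Mcm7, Mcm10, Cdc6, Cdt1 and Orc1 and a probe set of the array carried that symbol alone. All 10 were found, each with 1 probe set, among 19938 genes measured. The study used 8 single-colour arrays, 4 labelled KLF7 and 4 labelled control. c-Kit+ bone marrow cells of C57Bl/6 mice received a lentivirus that expressed the zinc finger factor KLF7, of the Krüppel-like family, or a control virus, and 72 hours later the Lin- c-Kit+ Sca-1+ cells, a fraction enriched for stem cells and early progenitors, were sorted and their RNA was amplified. Both groups were therefore transduced. The labels name no promoter of the transgene, no age or sex of the mice and no pooling, and do not say whether the 4 arrays of a group came from separate cultures, so that a p-value here speaks of the spread among these arrays alone, and that spread may be technical.

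Licensing takes place in late mitosis and G1. The origin recognition complex, of which ORC1 is the largest subunit, marks the origin, CDC6, an ATPase, joins it, and CDT1 brings the ring of MCM2 to MCM7, which is closed around the DNA as an inactive helicase. In S phase CDC45 and GINS bind the ring and MCM10 helps to set it in motion, while geminin and the destruction of CDT1 prevent a second loading. Transcription of most of these genes is driven by E2F factors, and quiescent cells, including most resting stem cells, hold little MCM protein.

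The starts of these genes share sequence that the choice of the set did not use. RefSeq windows (assembly GRCm38.p6) from 250 bases before to 50 bases after a transcript's start were given for 9 of the 10 genes, with 2 windows for Mcm7 and none for Mcm4. The E2F motif was searched as TTTCCCGC, TTTGGCGC, TTTCGCGC or TTTGCCGC on either strand, and the forms can overlap each other. It was held by 7 of the 9 genes (Mcm3, Mcm5, Mcm6, Mcm7, Cdc6, Cdt1 and Orc1), in 7 of their 10 windows, against 2.26% of all 32851 windows of 300 bases. The GC box GGGCGG, which SP and KLF factors are known to bind, was in 8 of the 10 windows against 35.7% of all, CCAAT was in 8 against 37.4%, and CACCC, another KLF motif, was in 7 against 57.5%. A match describes letters and is not evidence that a factor binds. The sequences below show the starts with overlapping E2F matches, 2 loaders with a single match and Mcm2, which has none in its window. They run 5′ to 3′ on the gene's strand, with E2F matches in capitals.
Mcm5, chr8:75109339-75109467, plus strand: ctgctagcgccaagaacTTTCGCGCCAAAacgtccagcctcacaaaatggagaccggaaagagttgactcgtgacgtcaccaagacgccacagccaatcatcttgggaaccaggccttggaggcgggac
Mcm6, chr1:128359706-128359875, minus strand: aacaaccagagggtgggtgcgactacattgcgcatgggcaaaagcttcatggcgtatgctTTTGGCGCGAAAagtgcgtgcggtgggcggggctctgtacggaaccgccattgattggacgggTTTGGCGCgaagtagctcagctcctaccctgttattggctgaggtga
Cdc6, chr11:98908002-98908031, plus strand: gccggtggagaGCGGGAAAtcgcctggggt
Orc1, chr4:108579416-108579445, plus strand: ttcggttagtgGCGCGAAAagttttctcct
Mcm2, chr6:88898781-88898950, minus strand: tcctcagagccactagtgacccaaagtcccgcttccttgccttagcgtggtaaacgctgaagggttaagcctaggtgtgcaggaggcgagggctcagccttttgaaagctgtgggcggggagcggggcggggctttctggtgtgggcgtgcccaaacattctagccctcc
The Mcm5, Mcm6 and Mcm2 stretches lie just upstream of the annotated gene. Those of Mcm6 and Mcm2 cover positions -170 to -1 from the start used. That of Mcm5 covers -170 to -42, since the start used for Mcm5 lies inside the annotated gene. For Cdc6 and Orc1 the start used also lies inside the annotated gene, which has another transcript that begins farther upstream, and only 30 bases around the match are shown.

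The deposited values are probe set intensities made with RMA, and all levels here are their log2. The array medians lay between 46.2 and 54.1 intensity units and any 2 arrays correlated across genes at 0.936 to 0.982. Klf7, the transduced gene, had a mean of 10.80 ± 0.55 on the arrays labelled KLF7 and 9.04 ± 1.00 on those labelled control (SD, n = 4 each), but control 2 (10.28) exceeded KLF7 2 (10.19), so that groups are named by their labels. Even Klf7 did not pass after adjustment over all genes (difference 1.76, SE 0.46, limma adjusted p 0.327). Of 7 measured markers of the sorted cells, none lay below the median of all genes on all arrays, and 5 had higher and 2 lower means in the KLF7 group. Kit lay between 7.85 and 10.52 (difference 0.31). The 2 lower ones, the stem cell factor Hlf (-0.90, SE 0.23, limma adjusted p 0.327) and the progenitor factor Myb (-0.91, SE 0.24, limma adjusted p 0.356), named after their values were seen, lay below every control array on every KLF7 array, and both differences were larger in size than that of any licensing gene. Of all genes, 2.38% lay below every control array in this way. Ly6a, which encodes Sca-1, was not analysed here. The arrays numbered 4 stood apart in both groups. Their mean level of 4 mast cell markers was 6.87 and 6.29, whereas the other 6 arrays lay at 9.07 to 10.65, and Kit was lowest there (7.85 and 8.33). All 4 mast cell markers also had higher means in the KLF7 group, with a median difference of 0.57, but their array means overlapped widely (6.87 to 10.65 against 6.29 to 10.29). All 8 measured markers of monocytes, macrophages and dendritic cells had higher means on the KLF7 arrays, with array means of 8.53 to 9.79 against 7.61 to 8.88. None of these markers lay below the median of all genes on all arrays. On single arrays, Itgax on control 3 (5.35) and Cd14 on control 2 (5.79) lay below that median (5.83 on each). Of the 6 T and NK cell markers 4, and of the 4 measured B cell markers 3, were below that median on every array. The array means of 7 neutrophil markers (6.99 to 9.94 against 6.83 to 9.67), of 4 megakaryocyte markers (8.32 to 9.62 against 8.64 to 10.03) and of 3 red cell precursor markers (5.33 to 5.82 against 5.65 to 5.88) overlapped between groups. The part of these cell types and of the lower Hlf and Myb levels in the differences below was not tested. In RNA of sorted cells, fewer cells that express a gene and less RNA per cell cannot be told apart.

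For 9 of the 10 licensing genes the mean was lower in the KLF7 group, Orc1 being the exception, and the median difference was -0.39 on the log2 scale. Among all genes, 49.6% were lower in mean and the median difference was 0.0019. No member passed the test over all genes. In limma with Benjamini-Hochberg adjustment over 19938 genes, 0 of 10 members had an adjusted p under 0.05, where 0% of all genes did, and the members' adjusted p ranged from 0.327 for Cdc6 to 0.993 for Orc1. With no adjustment, 2 members had a limma p under 0.05, Cdc6 and Mcm7, both lower, against 8.21% of all genes in either direction and 3.56% in the lower one. The 4 KLF7 arrays lay wholly below the 4 control arrays for 2 members, Cdc6 and Mcm5, and this was so for 2.38% of all genes (5.22% were apart in either direction). The count of members at an unadjusted p under 0.05 depended on single arrays and on the processing. It was 5 without the array labelled KLF7 4, 4 without control 3 and 1 without KLF7 1, KLF7 3, control 1 or control 4, and Cdc6 was among them each time. It was 4 (Mcm3, Mcm5, Mcm7 and Cdc6) with quantile normalization applied again, with cyclic loess and with the arrays numbered 4 as a term of the fit, and 1 without KLF7 2 and control 2. That last run had fewer arrays a group, and its median difference of the members was -0.51, against -0.39 with all arrays. The mean difference of Mcm2 to Mcm7 was -0.50 there, against -0.38. Cdc6 was at -0.83, while Mcm10 (-0.22) and Orc1 (0.11) moved upward.

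**Figure D1:**
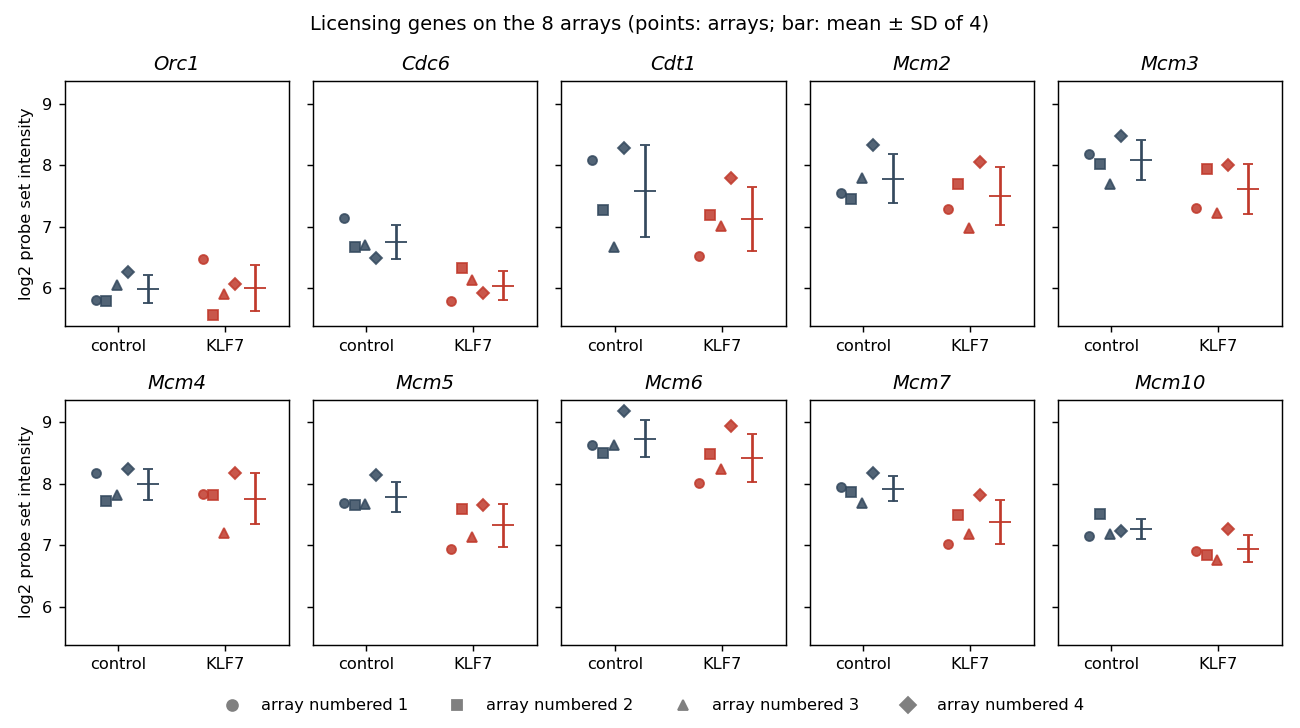
Log2 probe set intensity (vertical axis) of each licensing gene on the control and KLF7 arrays, with a symbol for each array number and a bar for the mean ± SD of 4 arrays. The groups are apart for Cdc6 and, by a small margin, Mcm5, and the arrays numbered 4 are the highest of their group for most MCM genes.

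Among the loaders, Cdc6 showed the lowest mean difference of the set. Its level was 5.79, 6.34, 6.13 and 5.92 on the arrays labelled KLF7 1 to 4 and 7.14, 6.67, 6.70 and 6.50 on those labelled control 1 to 4. Every KLF7 array was below every control array, with 6.34 as the highest of the first group and 6.50 as the lowest of the second. The means were 6.04 ± 0.24 and 6.75 ± 0.27 (SD, n = 4 each), a difference of -0.71 (SE 0.18, 95% interval -1.12 to -0.30, 1.63-fold lower, limma adjusted p 0.327). The difference was -0.58 between the arrays numbered 4 and -0.75 among the other 6 arrays, and leaving out 1 array at a time gave -0.81 to -0.58. Cdc6 protein is short-lived in G1 and is made anew when cells enter the cycle.

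Cdt1, which carries the MCM ring to the origin, varied most between arrays. Its level was 6.52, 7.19, 7.0045 and 7.79 on the KLF7 arrays and 8.09, 7.27, 6.67 and 8.28 on the control arrays, in the order of their numbers. The groups overlapped widely, since control 3 lay below 3 of the 4 KLF7 arrays and KLF7 4 lay above 2 of the control arrays. The difference was -0.45 (SE 0.37, 95% interval -1.28 to 0.37, limma adjusted p 0.848). It was -0.76 without control 3 and -0.22 without control 4, and also moved to -0.25 without KLF7 1 and -0.29 without control 1.

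Orc1, an ATPase subunit of the origin recognition complex whose level varies with the cell cycle, had nearly equal means. It lay at 6.48, 5.57, 5.91 and 6.07 on the KLF7 arrays and at 5.81, 5.79, 6.05 and 6.27 on the control arrays. The array labelled KLF7 1 was the highest of all 8 and KLF7 2 the lowest. The difference was 0.03 (SE 0.20, limma adjusted p 0.993), and its 95% interval of -0.42 to 0.47 also holds the differences of Mcm2, Mcm4, Mcm6 and Mcm10. Its sign turned without KLF7 1 (-0.13), control 1 (-0.03) or control 2 (-0.04) and with array weights (-0.08).

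All 6 genes of the MCM ring were lower in mean in the KLF7 group, by 0.23 to 0.54 on the log2 scale. Mcm7, whose product sits between MCM4 and MCM3 in the ring, showed the lowest mean difference among them. It lay at 7.02, 7.49, 7.18 and 7.82 on the KLF7 arrays and at 7.94, 7.86, 7.69 and 8.18 on the control arrays. The KLF7 arrays numbered 1, 2 and 3 were below every control array, and KLF7 4 was above control 3. The difference was -0.54 (SE 0.21, upper 95% bound -0.08, 1.45-fold lower, limma adjusted p 0.519).

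Mcm5, which with MCM2 forms the gate through which the ring opens around DNA, lay at 6.93, 7.58, 7.13 and 7.65 on the KLF7 arrays and at 7.68, 7.65, 7.67 and 8.15 on the control arrays. The groups did not overlap, but KLF7 4 (7.646) and control 2 (7.653) were almost level. The difference was -0.46 (SE 0.21, 1.38-fold lower, limma adjusted p 0.617). Mcm3, the partner of MCM5 in the ring, lay at 7.31, 7.93, 7.23 and 7.998 against 8.18, 8.02, 7.69 and 8.46. KLF7 1 and KLF7 3 were below every control array, and control 3 was the 1 control array below KLF7 2 and KLF7 4. Its difference was -0.47 (SE 0.24, 1.39-fold lower, limma adjusted p 0.679).

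Mcm2, Mcm4 and Mcm6 overlapped more. Mcm2, the gate's other side, lay at 7.28, 7.69, 6.98 and 8.06 against 7.55, 7.46, 7.79 and 8.33, a difference of -0.28 (SE 0.27, limma adjusted p 0.903). Mcm4 lay at 7.84, 7.81, 7.19 and 8.18 against 8.17, 7.72, 7.82 and 8.23, a difference of -0.23 (SE 0.23, limma adjusted p 0.907), and only KLF7 3 was below every control array. Mcm6 lay at 8.01, 8.48, 8.24 and 8.93 against 8.63, 8.50, 8.62 and 9.18, a difference of -0.32 (SE 0.24, limma adjusted p 0.831), with KLF7 4 above 3 of the control arrays. These values rested on single arrays. Without KLF7 3, Mcm2 was at -0.10 and Mcm4 at -0.04. Without control 4, Mcm2 was at -0.09, Mcm4 at -0.15 and Mcm6 at -0.17, and without KLF7 1 Mcm6 was at -0.18. Without KLF7 4 the same 3 genes were at -0.46, -0.37 and -0.49, and Mcm2 was at -0.45 without KLF7 2 and control 2.

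Mcm10 shares the name but not the ring: it is a scaffold that binds the loaded helicase and helps to activate it. It lay at 6.90, 6.84, 6.76 and 7.26 on the KLF7 arrays and at 7.15, 7.51, 7.19 and 7.23 on the control arrays. KLF7 1, 2 and 3 were below every control array and KLF7 4 was above 3 of them. The difference was -0.33 (SE 0.17, limma adjusted p 0.679). It was 0.03 between the arrays numbered 4 and -0.45 among the other 6 arrays, and -0.22 without KLF7 2 and control 2.

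**Figure D2:**
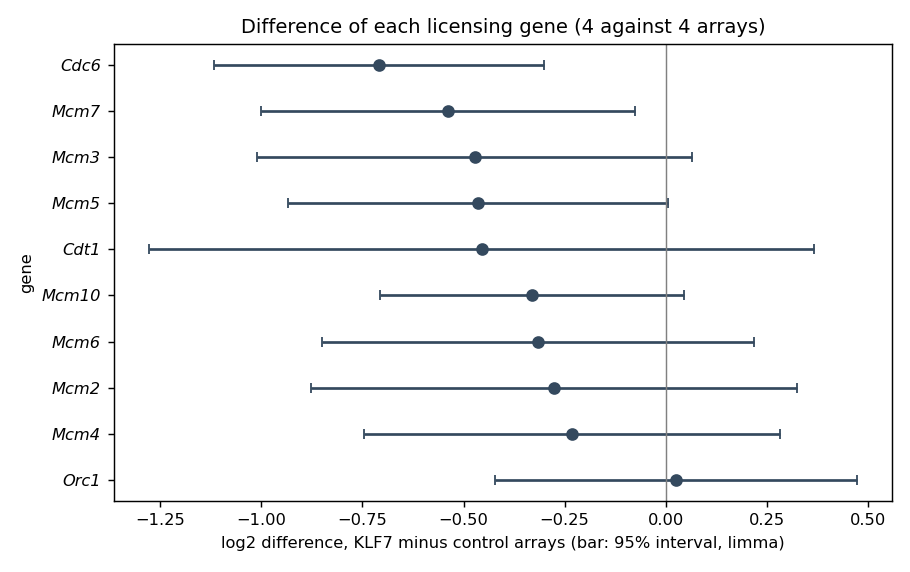
Difference of each licensing gene in log2 intensity, KLF7 minus control arrays (horizontal axis), with its 95% interval from limma over 4 against 4 arrays. The unadjusted intervals of Cdc6 (-1.12 to -0.30) and Mcm7 (upper bound -0.08) lie below 0, and those of the other 8 genes include it.

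The helicase and its loaders had similar average differences in the fit of all 8 arrays. The mean log2 level of Mcm2 to Mcm7 was 7.67 ± 0.37 on the KLF7 arrays and 8.05 ± 0.26 on the control arrays (SD, n = 4 each), a difference of -0.38. The mean of Orc1, Cdc6 and Cdt1 was 6.39 ± 0.14 against 6.77 ± 0.29, also a difference of -0.38. The difference between both, -0.0038, was smaller than its spread between arrays of a group (SD 0.26 and 0.19), and leaving out 1 array at a time moved it from -0.093 to 0.095. The agreement of the averages covered unlike members, since the loaders ranged from -0.71 for Cdc6 to 0.03 for Orc1, while the ring genes all lay between -0.54 and -0.23. No test was made on these averages, because the members were chosen with results known. In neither average were the groups apart: KLF7 4 (8.11) was above 3 of the control arrays for the ring, and control 3 (6.47) and control 2 (6.58) were below KLF7 4 (6.59) for the loaders.

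**Figure D3:**
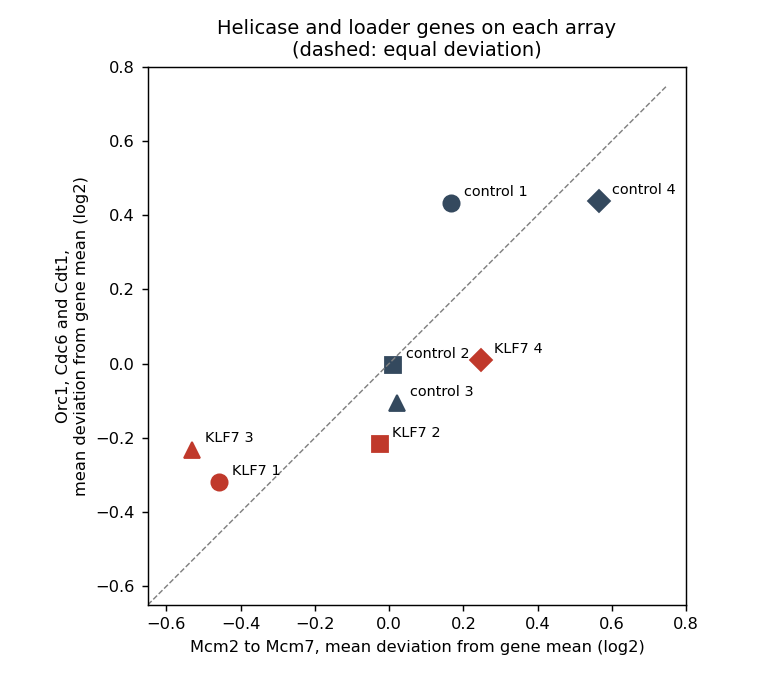
Mean deviation of Mcm2 to Mcm7 (horizontal axis) and of Orc1, Cdc6 and Cdt1 (vertical axis) from each gene's mean over 8 arrays, in log2 units, with 1 point per array and a dashed line of equal deviation. KLF7 3 and KLF7 1 are lowest for the ring, at -0.53 and -0.46, and control 4 is highest, at 0.57.

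The order of the arrays was largely shared among the ring genes. The array labelled control 4 was the highest of all 8 for 7 of the 10 members, and KLF7 4 was the highest of its group for 8 members. The lowest array was KLF7 1 for 5 members and KLF7 3 for 4. As a description over the 8 arrays, which share the group difference and the distance of the arrays numbered 4, the 15 pairs of ring genes had Pearson correlations of 0.64 to 0.96 (median 0.84), and 0.57 to 0.94 after the group means were removed. Cdt1 followed the ring (median 0.78, and 0.75 within groups). Cdc6 did so only across groups (median 0.43, and -0.06 within groups), Mcm10 lay between them (0.59 and 0.38), and Orc1 did not follow the ring (-0.09 in both).

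Among 9959 other genes above the median level, those whose 8 levels were most like the mean of Mcm2 to Mcm7 were Repin1, a zinc finger protein first described at a replication origin, Parp1, the sensor of DNA breaks, and Nme4, a mitochondrial nucleoside diphosphate kinase, at Pearson r of 0.990, 0.988 and 0.988 over 8 arrays. Atad3a, a mitochondrial ATPase, Pold2, a subunit of DNA polymerase delta, Ddx1, an RNA helicase, Psme3, a proteasome activator, and Prmt5, an arginine methyltransferase, followed at 0.983 to 0.976. For all 8 the correlation was at least 0.963 without the arrays numbered 4. These genes were picked for likeness out of 9959, so the values describe the picking. Their differences between groups ranged from -0.24 for Atad3a to -0.84 for Pold2, and none passed in limma (adjusted p 0.599 to 0.786).

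The rest of the replication pathway was described by lists that were written with earlier results of these data known. Of 92 genes written, 90 were measured, 62 of them with a lower mean on the KLF7 arrays, and their median difference was -0.16. In limma 0 of the 90 passed after adjustment, and 6 lower and 2 higher ones had an unadjusted p under 0.05, against 3.56% and 4.65% of all genes. Single arrays moved the medians of the lists given next, in both directions. When 1 array at a time was left out, the origin recognition complex had its lowest median, -0.42, without control 1 and its highest, -0.21, without KLF7 1. The licensing inhibitors and regulators ranged from -0.15 (without KLF7 4) to -0.03 (without control 4). The MCM paralogues ranged from -0.33 (without KLF7 1) to -0.07 (without KLF7 3), and origin firing from -0.22 (without KLF7 4) to -0.04 (without KLF7 3). Fork elongation ranged from -0.24 (without KLF7 4) to 0.05 (without control 4), and nucleotide supply from -0.39 to -0.0041 without these same arrays. The G1 to S regulators ranged from -0.14 (without control 1) to 0.0042 (without KLF7 2), and mitosis from -0.28 (without KLF7 2) to -0.09 (without KLF7 1).

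The other subunits of the origin recognition complex were split. Orc5 (-0.40, SE 0.15, limma adjusted p 0.494) and Orc3 (-0.40, SE 0.16, limma adjusted p 0.531) were lower on all 4 KLF7 arrays than on any control array. This was so for 7 of the 90 genes of all lists and for 2.38% of all genes. The reverse held for 1 of the 90 and for 2.83% of all genes. Orc5 lay at 6.22 to 6.49 against 6.55 to 6.95, and Orc3 at 8.15 to 8.45 against 8.595 to 8.81. Orc2 was at -0.37, while Orc6 was at 0.27 and Orc4 at 0.07. The median of the 5 was -0.37.

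The list of licensing inhibitors and regulators, which also holds genes that promote licensing such as Kat7 and Lrwd1, had a median of -0.05 over 10 genes, 7 of them lower. Gmnn, which encodes geminin, the inhibitor of CDT1, was at 0.34 (SE 0.21, limma adjusted p 0.767), with 5.71 to 6.46 on the control arrays and 6.09 to 6.77 on the KLF7 arrays. Dtl, which marks CDT1 for destruction in S phase, was at -0.49 (SE 0.23, limma adjusted p 0.635), and its ligase scaffold Cul4a was at -0.31. The difference of Lrwd1, which binds the origin recognition complex, was -0.15. Of the MCM paralogues outside the ring, Mcm8 was at -0.41 (SE 0.20), Mcm9 at -0.20 and Mcmdc2 at 0.08.

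Of 16 genes of origin firing and of the active helicase, the mean was lower for 12, with a median of -0.16. Cdc45, which turns the loaded ring into the active helicase, was at -0.42 (SE 0.21, limma adjusted p 0.668), Mtbp at -0.33, Timeless at -0.29 and Gins3 at -0.25. Of 22 genes of fork elongation, 15 were lower, with a median of -0.15. Pold2 was at -0.84 (SE 0.45) and Pola2, of the primase complex, at -0.40, while Rpa3, of the single-strand binding protein, was at 0.51 and Pold1 at 0.28. Of 5 measured genes of nucleotide supply, 4 were lower with a median of -0.20, which was -0.44 without KLF7 2 and control 2. Tyms was at -0.44, Rrm2 at -0.39, Dut at -0.20 and Tk1 at 0.23.

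The regulators of the G1 to S step differed in both directions, with a median of -0.08 over 18 genes. That median was -0.17 with array weights and 0.06 without the dimmer 50% of genes. Rb1, which encodes the retinoblastoma protein that holds E2F factors in check, was higher on every KLF7 array, at 9.32, 9.004, 9.48 and 9.42 against 8.35, 8.55, 8.69 and 8.57 (difference 0.77, SE 0.18, 1.70-fold, limma adjusted p 0.323). Tfdp1, the partner through which E2F factors bind DNA, was lower on every KLF7 array, at 8.22, 8.84, 8.75 and 8.70 against 9.06, 9.45, 9.30 and 9.46 (difference -0.69, SE 0.20, 1.62-fold lower, limma adjusted p 0.373). Cdc25a, the phosphatase that activates CDK2, was at -0.49 (SE 0.16) and Tfdp2 at -0.50 (SE 0.19). The groups did not overlap for 3 of the 18 genes, 2 lower and 1 higher, against 2.38% and 2.83% of all genes. None passed after adjustment.

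Mitotic genes, which act after replication, had a median of -0.18 over 11 measured genes, with 9 lower. Cdc20, an activator of the anaphase-promoting complex, was at -0.54 (SE 0.28), the checkpoint kinase gene Ttk at -0.35 and Top2a, a topoisomerase, at -0.26, while Birc5, which encodes survivin, was at 0.63 (SE 0.25, limma adjusted p 0.520). Whether the median of the licensing genes differs from those of the lists beyond the spread between arrays was not tested.

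**Figure D4:**
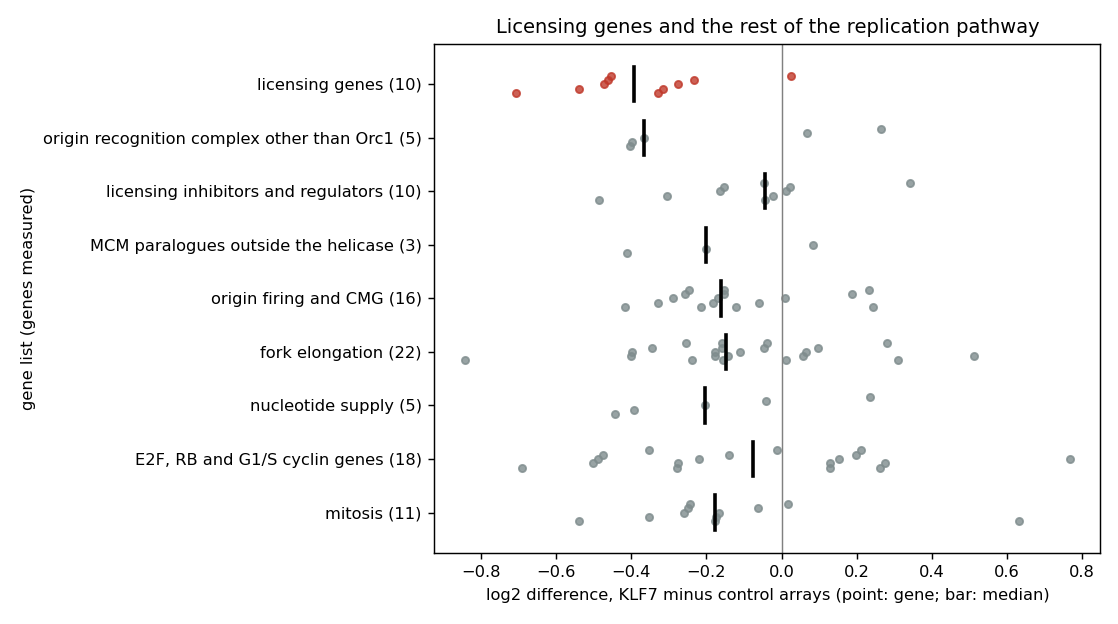
Difference of each gene in log2 intensity, KLF7 minus control arrays (horizontal axis), for the 10 licensing genes and 8 lists of the replication pathway, with 1 point per gene and a bar at the median. The medians run from -0.39 for the licensing genes to -0.05 for the mixed list of licensing inhibitors and regulators.

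Mcm7 is also the host of a microRNA cluster, and the array has a probe set for each of the 3 hairpins, which were looked at after the values of Mcm7 were seen. The mature arms that define the families, from RefSeq (GRCm38.p6, minus strand), are given with the seed, bases 2 to 8, in capitals, since the first pair shares a seed and the third differs.
mmu-miR-106b-5p, chr5:138165787-138165807: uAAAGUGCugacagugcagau
mmu-miR-93-5p, chr5:138165574-138165596: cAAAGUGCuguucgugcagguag
mmu-miR-25-3p, chr5:138165332-138165353: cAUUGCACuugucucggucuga
Where Mcm7 was at -0.54, the probe sets of the hairpin genes were at 0.23 for Mir106b (SE 0.18), -0.29 for Mir93 (SE 0.19) and -0.09 for Mir25 (SE 0.16), with limma adjusted p of 0.833, 0.787 and 0.954. Mir93 lay at 5.596, 5.66, 5.70 and 5.04 on the KLF7 arrays against 6.03, 5.82, 5.93 and 5.38 on the control arrays, and was lowest on the arrays numbered 4, where Mcm7 was the highest of its group. Mir25 (6.14) and Mir106b (5.13) were also lowest of their group on KLF7 4. On control 4, however, Mir25 was the highest of its group (6.598), and Mir106b (5.14) lay above control 3 (4.94). Whether these probe sets read the hairpin, the intron of Mcm7 or the mature form was not stated in the labels.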

How the data were processed

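The submitters' processing notes name RMA and Affymetrix Expression Console for the deposited probe set intensities, which are on a linear scale. RMA corrects background, normalises between arrays and summarises probes. For versions and the genome build, nothing is given in the sources used here. The log2 of each intensity was taken. In the platform annotation, 21789 of 35554 probe sets had a single gene symbol. The probe set with the highest mean was kept per gene, with no filter on dim genes. All 19938 genes were fitted by group in R 4.3.3 using limma 3.58.1 (lmFit, then eBayes with trend), two-sided, with Benjamini-Hochberg adjustment and a threshold of 0.05. The script was tested on simulated data. With 4 arrays a group, their number limits precision. Named genes were the members, Klf7, Kit, up to 4 per list by smallest p and the 8 most like Mcm2 to Mcm7. Others were named after their values were seen. The members, lists and alternatives were chosen with earlier results of these data known. Alternatives left out arrays, changed the normalization, weights, prior, filter, probe sets and log offset, or added the replicate number as a block. Figures were drawn with matplotlib 3.10.9.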

Additional observations from a re-analysis of the deposited data

Results flagged for a closer look

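The level of Mcm5 on the array labelled control 4, 8.15, stood far from the other 3 control arrays (7.65 to 7.68): the gap to the nearest of them was 0.951 of the group's range, above the critical share for 4 samples. It was the 1 value so marked among 26 sets of 4 arrays looked at, and chance marks about 1 in 20.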

How the results depend on the processing

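No licensing gene passed in limma with Benjamini-Hochberg adjustment under any alternative run. With no adjustment, 2 members had a limma p under 0.05 in the fit as designed, where 8.21% of all genes did, and 1 to 5 members did under the alternatives. That number was 4 with the replicate block, with either renormalization (quantile or cyclic loess) and with the batch term. Of all genes, 90 were called with the replicate block, 26 with a batch term for both arrays numbered 4, and 0 to 1 when each array was left out. Cdc6 had an adjusted p of 0.120 with the replicate block and 0.132 with the batch term. The deviations of same-numbered arrays from their group means correlated at 0.35, -0.13, 0.36 and 0.70 for numbers 1 to 4. Whether a number marks a shared experiment is not in the labels and was not settled by these values. The fit as designed did not pair the arrays. The 9 members with a lower mean kept that direction under every alternative. The Orc1 difference turned to -0.077 with array weights and ranged from -0.13 to 0.17 when each array was left out. The median of the G1 to S genes was 0.058 once the dimmer 50% of genes were removed. When each array was left out, the median of the members lay between -0.53 and -0.28, the mean difference of Mcm2 to Mcm7 between -0.53 and -0.26 and that of the loaders between -0.48 and -0.30. The causes were not tested.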
